A study of Macaca mulatta with 24 samples.

Results

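The epidermal growth factor (EGF) family was examined in rhesus monkey endometrium, the inner lining of the uterus, from a list of 10 symbols: the ligands EGF, TGFA, AREG, HBEGF, EREG and BTC, the receptors EGFR, ERBB2 and ERBB3, and the feedback inhibitor ERRFI1. The gene name column of the scanner files held 4 of the 10, namely EGF, TGFA, BTC and ERBB3, each with 1 probe. A further 4 were recognised from other annotation in the same files: EGFR, ERBB2 and ERRFI1 from the full name in the probe description, and AREG from its gene ID, since the files call it AREGB. The probe is reported here as AREG. Whether AREG and AREGB are separate genes, and whether the probe would tell them apart, was not examined. No probe was found for HBEGF or EREG under any name searched. These 8 probes stand among 20217 on the array, of which 12206 features were bright enough to be tested.

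Endometrial RNA came from proven fertile females in 6 groups of 4 arrays: mated cycles that led to conception, and cycles without mating but with normal ovulation, each on day 2, 4 or 6. Days are counted from ovulation in the sample descriptions, while another label of the conception samples counts them after fertilization. In 8 non-mated samples the title says day 2 but every other label says day 4 or 6, and the other labels were followed. Whether replicates are separate animals is not stated, so a p-value here sets a difference only against the scatter of these arrays, part of which may be technical.

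EGF family ligands are made as membrane-anchored precursors and are released by ADAM proteases. They bind EGFR or ERBB4; ERBB2 binds no known ligand and acts as a partner, and ERBB3, which binds neuregulins, has little kinase activity of its own and signals mainly in a pair with ERBB2. ERRFI1, also called MIG6, is induced by receptor signalling and by progesterone and blocks the EGFR kinase. In the uterus these ligands and receptors take part in the exchange of signals between embryo and endometrium around implantation.

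The probes that the results turn on are shown by the first 30 of their 60 bases, 5′ to 3′, with G and C in capitals. The upper 3 were well above background on most arrays and the lower 3 on 2 or fewer.
ERBB2: atGaGGaaGGaaCaGCaatGGtGtCaGtat
ERBB3: atatCCCttCCtCtCaGGCtCtGaCtaCtt
ERRFI1: aGCatCtttCtGCtttGaaaaCtCtCaCaG
EGFR: CtttCtaCaatttCaatttCtCCCtttGtt
BTC: ataaGaaCGttaaatatatGattattGtCt
AREG: tttaaaCtttCaattGtCaCtttttatGCt

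On the rheMac2 assembly the files place these probes at chr16:49828762-49828821 (ERBB2), chr11:53158804-53158863 (ERBB3), chr1:11038004-11038063 (ERRFI1), chr3:71168583-71168642 (EGFR), chr5:54817443-54817502 (BTC) and chr5:55118217-55118276 (AREG). The EGF and TGFA probes are at chr5:102914269-102914328 and chr13:70764043-70764102. The files list the positions of the ERBB2, ERBB3, BTC and EGF probes in ascending order and those of the other 4 in descending order, and give no strand beyond that. Exon and UTR positions were not analysed here. Over the full 60 bases G and C made up 45% of each of the ERBB2, ERBB3 and ERRFI1 probes, and between 26.7% (BTC) and 35% (EGF and TGFA) of the other 5. Among all probes on the array with a GC content of 26 to 36%, 64.4% passed the filter on dim probes, against 62.0% of those with 44 to 46%. The BTC, AREG and EGFR probes lie at the low end of that first range (26.7 to 28.3%). The part of base composition in the brightness of these probes was not tested.

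Signal strength set what could be read. The scanner software marks a spot as well above background or not. A probe was counted as well above background if at least 1 of its spots in use was so marked. By this count 53.3 to 71.5% of probes were well above background on each of 21 arrays. The other 3, called weak arrays here, reached 4.33% (non-mated day 2, replicate 3), 37.9% (non-mated day 4, replicate 1) and 21.8% (non-mated day 4, replicate 2). All 3 are non-mated samples, so the fitted differences that involve the non-mated groups on day 2 or 4 are given with and without them. Markers of epithelium, stroma and smooth muscle were present: 5 of 5 measured epithelial genes, 8 of 8 stromal genes and 4 of 5 smooth muscle genes passed the filter, the exception being CNN1. Endothelium (4 of 4 measured genes), macrophages (5 of 6, without CD163) and natural killer cells (5 of 6, without IL2RB) were represented as well, while T and B cells (1 of 3, without CD3E and MS4A1) and red blood cells (1 of 3, without HBD and ALAS2) rested on 1 gene each. A level below is the log2 signal relative to the 75th percentile of its array, so 0 is the brightness of the probe at that percentile.

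On nearly all arrays the ligands and EGFR were not well above background. BTC (betacellulin) and AREG (amphiregulin) were well above background on 0 of 24 arrays, TGFA (transforming growth factor alpha) on 1, and EGF and EGFR on 2 each. Of the 120 values of these 5 genes, 5 were well above background and 83 were the lowest value that the scanner software assigns on that array. EGF stood out at a level of -2.41 in conception day 2, replicate 2, and at -3.83 in conception day 6, replicate 3. TGFA reached -5.08 in non-mated day 4, replicate 4. EGFR was measured at -5.10 in non-mated day 4, replicate 3, and at -5.34 in non-mated day 6, replicate 2. For each of these genes, no group had more than 1 array with it above background, so none passed the filter of 3 arrays in a group and none was tested. Their other values were not told apart from background. On the 21 arrays that are not weak, the lowest level of any probe well above background lay between -7.12 and -4.40. On the weak arrays it lay between -2.51 and 0.90. It is no fixed limit, since unmarked values could lie above it. EGFR in conception day 2, replicate 2, was at -4.83 and unmarked, while the lowest level so marked on that array was -5.8.

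**Figure D1:**
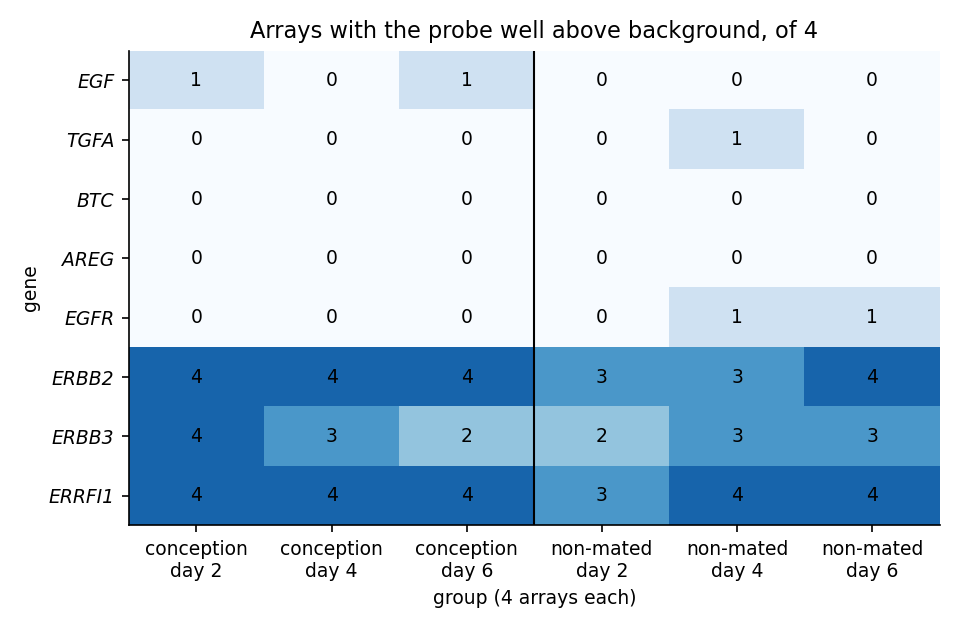
Number of arrays, of 4 in each group, on which the probe of each gene was well above background; rows are genes and columns the 6 groups. The 4 ligands and EGFR have 0 or 1 in every group, and ERBB2, ERBB3 and ERRFI1 have 2 to 4.

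**Figure D2:**
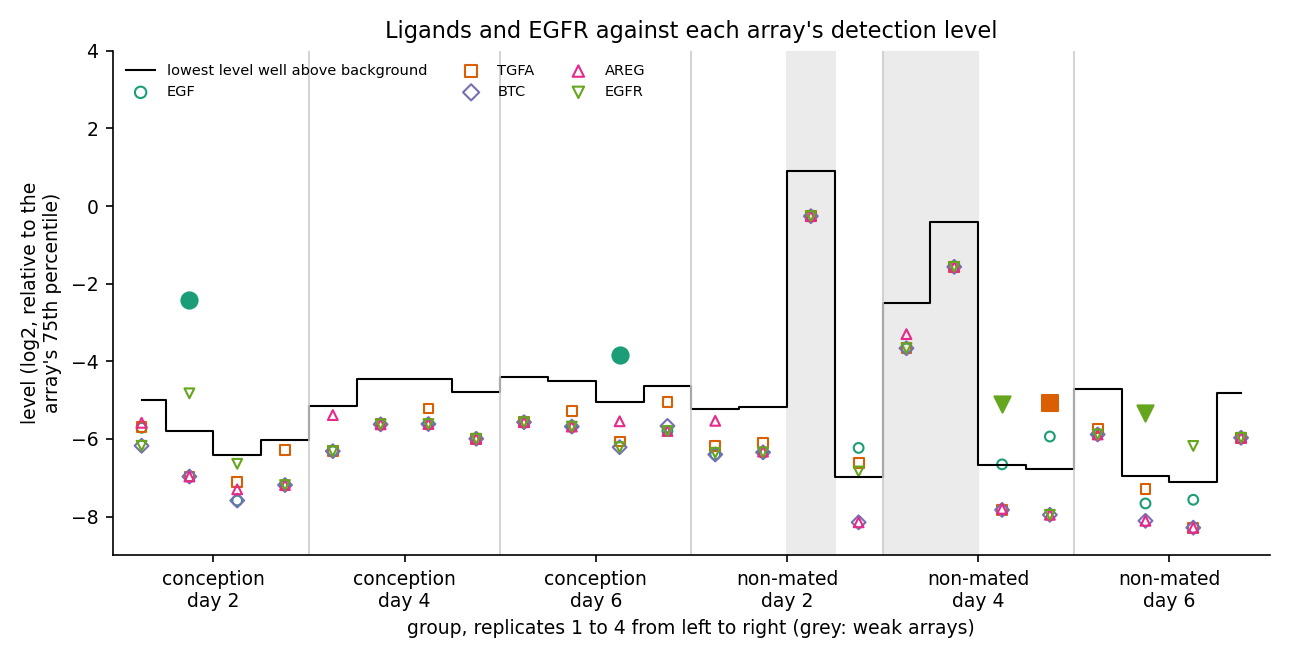
Level of EGF, TGFA, BTC, AREG and EGFR on each array (log2 relative to the 75th percentile of the array; filled symbols are well above background, open symbols are not), with a black line at the lowest level of any probe well above background on that array and grey bands on the 3 weak arrays. Filled symbols number 5 of 120, and the highest is EGF at -2.41.

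EGF, the founding ligand of the family, was above background only on arrays of conception cycles, and TGFA only on 1 array of a non-mated cycle. EGFR was above background only on 2 non-mated arrays. These are single arrays within their groups, and no difference between cycle types was tested. The levels themselves did not follow this split. Unmarked values of conception arrays lay above the marked ones: EGFR at -4.83 in day 2, replicate 2, and TGFA at -5.04 in day 6, replicate 4. The arrays also differed in the lowest level of any probe well above background. It was -6.67 and -6.95 on the arrays with EGFR above background and -6.78 on that with TGFA. On conception arrays it lay between -6.42 and -5.01 on day 2, and between -5.14 and -4.40 on days 4 and 6. On most conception arrays of days 4 and 6 it was above the marked EGFR and TGFA levels given earlier. Such levels could go unmarked there. For HBEGF and EREG no level can be given.

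ERBB2, the partner receptor, was well above background on 22 of 24 arrays, and the 2 others were weak arrays. In conception cycles its levels for replicates 1 to 4 were 1.04, 1.15, 2.07 and 1.78 on day 2, then 1.90, 1.93, 2.30 and 1.00 on day 4, and 1.56, 1.13, 1.61 and 0.56 on day 6. In non-mated cycles they were 1.53, 0.97, -0.26 (weak array) and 1.92 on day 2, then 1.53 (weak), -0.89 (weak), 1.75 and 1.59 on day 4, and 1.10, 1.98, 1.79 and 0.95 on day 6. The lowest 2 values of the series were on weak arrays, and apart from these all levels lay between 0.56 and 2.30, with the 3 arrays of non-mated day 4 in a narrow part of that range (1.53 to 1.75). Without the weak arrays the group means ran from 1.21 ± 0.49 (SD, n = 4) in conception day 6 to 1.78 ± 0.55 (SD, n = 4) in conception day 4. The 5 steps between neighbours in that order were at most 0.24, none of them larger than the larger SD of the 2 groups.

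ERBB3, the receptor for neuregulins, was well above background on 17 of 24 arrays, 16 of them among the 21 that are not weak. In conception cycles the levels for replicates 1 to 4 were -3.23, -3.51, -3.50 and -3.25 on day 2, which is the tightest group (SD 0.15), then -2.78, -3.31, -1.69 and -4.17 on day 4, and -3.61, -3.52, -2.46 and -4.68 on day 6. In non-mated cycles they were -3.60, -4.46, -0.26 (weak array) and -3.26 on day 2, then -3.11 (weak), 0.59 (weak), -3.48 and -2.83 on day 4, and -4.41, -3.45, -3.80 and -3.51 on day 6. The highest 2 values were on weak arrays, 1 of them the lowest value that array could give. The single high value among the others was -1.69 in conception day 4, replicate 3. ERBB3 was above background on only 2 of 4 arrays in conception day 6, and likewise in non-mated day 2, which includes a weak array. The unmarked values of conception day 6 were those of replicates 1 and 4, which were not told apart from background. Without the weak arrays the means ran from -3.79 ± 0.44 (SD, n = 4) in non-mated day 6 to -2.99 ± 1.04 (SD, n = 4) in conception day 4, in 5 steps of at most 0.22, none over the larger SD of the pair.

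ERRFI1, the feedback inhibitor of EGFR, was well above background on 23 of 24 arrays. In conception cycles the levels for replicates 1 to 4 were 1.30, 1.50, 2.09 and 1.86 on day 2, then 3.19, 3.15, 0.48 and 1.63 on day 4, and 2.27, 0.29, 0.54 and 1.29 on day 6. In non-mated cycles they were 1.72, 1.72, -0.26 (weak array) and 1.73 on day 2, then 1.25 (weak), 0.63 (weak), 2.70 and 1.43 on day 4, and 2.49, 2.59, 2.22 and 1.58 on day 6. Conception day 4 held both the highest 2 values of the series and one of the lowest, and the 3 sound arrays of non-mated day 2 were nearly equal. Without the weak arrays the lowest mean was 1.10 ± 0.89 (SD, n = 4) in conception day 6 and the highest 2.22 ± 0.45 (SD, n = 4) in non-mated day 6. The largest step in the order of means was 0.59, from conception day 6 to conception day 2, and none of the 5 exceeded the larger SD of the pair.

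**Figure D3:**
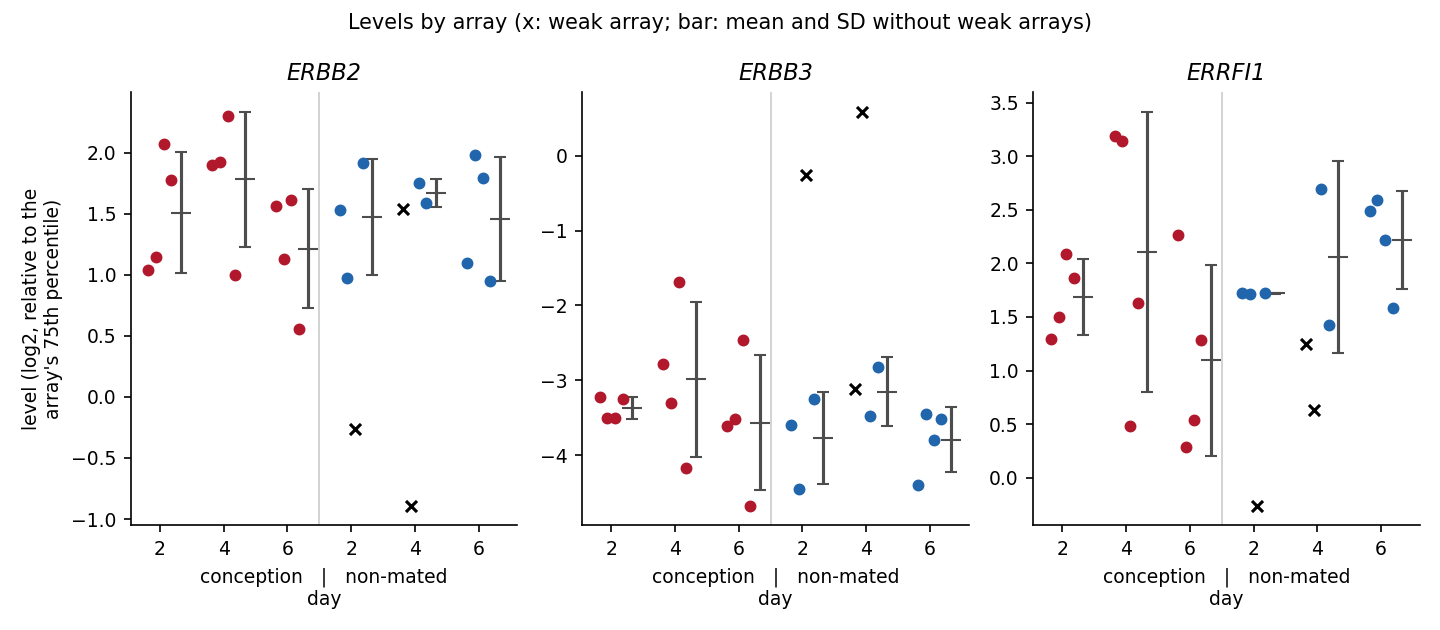
Levels of ERBB2, ERBB3 and ERRFI1 on each array (log2 relative to the 75th percentile of the array) by cycle type and day, with crosses for the 3 weak arrays and bars for the mean and SD of the other arrays. The ranges of conception (red) and non-mated (blue) arrays overlap on every day for all 3 genes, and for ERRFI1 on day 6 all 4 conception arrays lie below the median of the non-mated arrays.

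The first comparison asked whether endometrium of conception cycles differs from that of non-mated cycles on the same day. On day 6, the only day without a weak array, the ERRFI1 level was 1.10 in conception and 2.22 in non-mated cycles, a log2 difference of -1.12 ± 0.60 (SE; 95% interval -2.36 to 0.11). It did not pass limma's test over all 12206 features (adjusted p = 1.00 after Benjamini-Hochberg adjustment, unadjusted p = 0.073). The conception arrays were below the non-mated median in 4 of 4 cases, although replicate 1, at 2.27, lay inside the non-mated range of 1.58 to 2.59. The difference was -1.49 within the first scan day and -0.76 within the second (2 against 2 arrays each). On the first scan day all conception arrays were on slides 7 and 8, and all non-mated arrays on slides 5 and 6. A difference between the groups within that scan day is therefore also one between slides. On the slide that held both groups the difference was -1.21 (2 against 1 arrays). The conception levels there were 2.27 and 0.29 against 2.49, so the value rested mainly on the array at 0.29. When the weak arrays were left out of the fit, which alters only the estimate of the spread on this day, the interval became -2.22 to -0.03, with adjusted p = 0.528.

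Markers of cell types were set beside this day. The mean level of the 5 epithelial markers was 2.57 in conception arrays (2.34 to 2.75) and 3.14 in non-mated arrays (2.80 to 3.37), ranges that do not overlap. Of the 5 genes, 2 were higher and 3 lower in conception arrays (median difference -0.48), and none passed limma's test (adjusted p = 1.00 for each, and at least 0.492 without the weak arrays). The mean of 5 natural killer cell markers was 1.12 (0.88 to 1.30) against 0.46 (0.05 to 1.48), and that of 8 stromal markers was 1.99 (0.92 to 2.77) against 1.90 (1.47 to 2.44), both overlapping. Their part in the ERRFI1 difference was not tested. In bulk tissue fewer cells of a type and less RNA per cell cannot be told apart.

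The receptors showed smaller differences on day 6. For ERBB2 the difference, conception minus non-mated, was -0.24 ± 0.53 (SE; 95% interval -1.35 to 0.87), and for ERBB3 it was 0.23 ± 0.81 (SE; 95% interval -1.46 to 1.91). Neither passed the test (adjusted p = 1.00 for both in limma). ERBB2 went in opposite directions on the 2 scan days, -0.80 and 0.32, while ERBB3 was at 0.06 and 0.39. Of the 3 genes tested, 0 passed on day 6, where 1 of 12206 features did (0.00819%). At an unadjusted p below 0.05 the count was 0 of 3 as well, against 2.47% of all features. Leaving out the weak arrays gave 1 of 3, namely ERRFI1, against 9.35% of all features (1141 of 12206). In 0 of the 3 genes were the 4 conception arrays apart from the 4 non-mated arrays on day 6, while 2.57% of all features were apart with conception higher and 1.75% with conception lower.

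On days 2 and 4 the size of the differences, and the sign of 3 of the 6, depended on the weak arrays. For ERBB3 the day 2 difference was -0.48 ± 0.81 (SE) with all arrays and 0.40 ± 0.51 (SE) without the weak one, and the day 4 difference was -0.78 ± 0.81 (SE) with all arrays and 0.16 ± 0.57 (SE) without the 2 weak ones. For ERBB2 the corresponding values were 0.47 ± 0.53 (SE) and 0.03 ± 0.37 (SE) on day 2, and 0.79 ± 0.53 (SE) and 0.11 ± 0.42 (SE) on day 4. For ERRFI1 they were 0.46 ± 0.60 (SE) and -0.04 ± 0.56 (SE) on day 2, and 0.61 ± 0.60 (SE) and 0.05 ± 0.64 (SE) on day 4. With the weak arrays gone, all 6 differences were between -0.04 and 0.40 and smaller than their standard errors. Within the 2 scan days the signs were opposite for each gene on both days: on day 2, ERBB3 was at -1.62 and 0.66, ERBB2 at 1.10 and -0.16 and ERRFI1 at 1.24 and -0.32. On day 4, ERBB3 was at 0.22 and -1.78, ERBB2 at -0.02 and 1.59 and ERRFI1 at -1.01 and 2.23, always with 2 against 2 arrays, weak ones included. Without the weak array of the first scan day on day 2, the differences there became -0.12 for ERBB3, 0.01 for ERBB2 and 0.25 for ERRFI1 (2 against 1 arrays). On day 4 both weak arrays belonged to the second scan day, which then held no non-mated array. None passed limma's test with or without these arrays, the lowest adjusted p being 0.704 (ERBB2, day 4, all arrays). Over all features 0 passed on either day, and 2.54% on day 2 and 5.89% on day 4 had an unadjusted p below 0.05; the 3 genes gave 0. The 4 arrays of the groups were apart in none of the 3 genes on either day; over all features this held for 0.557% (higher in conception) and 0.86% (lower) on day 2 and for 1.04% and 1.34% on day 4. The median difference of all features on day 2 was -0.15 with all arrays and 0.01 without the weak one. The widest interval without the weak arrays, that of ERRFI1 on day 4, ran from -1.30 to 1.39, so a difference of that size was not detectable there, with 2 sound non-mated arrays.

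**Figure D4:**
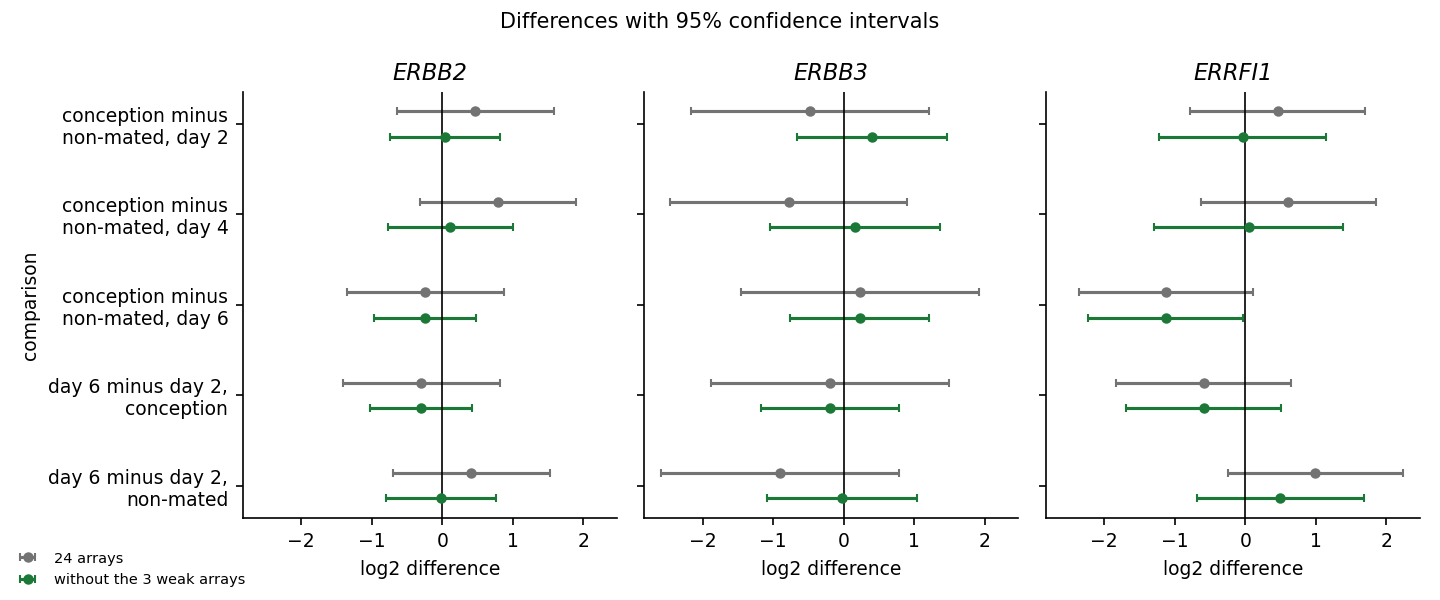
Log2 differences with 95% confidence intervals for ERBB2, ERBB3 and ERRFI1 in 5 comparisons, with all 24 arrays (grey) and without the 3 weak arrays (green). Every interval with all arrays spans 0, and of those without the weak arrays only ERRFI1 on day 6 does not (-2.22 to -0.03).

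Averaged over the 3 days, the difference between cycle types was 0.34 ± 0.31 (SE) for ERBB2, -0.34 ± 0.47 (SE) for ERBB3 and -0.02 ± 0.34 (SE) for ERRFI1. Without the weak arrays these became -0.03 ± 0.22, 0.26 ± 0.30 and -0.37 ± 0.33 (SE). The sign turned for ERBB2 and ERBB3. None of the 3 genes passed in either fit, against 1 of 12206 features (0.00819%) with all arrays, and none had an unadjusted p below 0.05, against 6.82% of all features.

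The second comparison followed each cycle type from day 2 to day 6. Of the 24 arrays, 6 were scanned at a single range and the others at an extended one. The 6 were conception day 2, replicates 1, 2 and 4, replicate 4 of conception days 4 and 6, and non-mated day 2, replicate 2. Scan range was thus uneven between cycle types and between days 2 and 6 of conception cycles. It served as a block in an alternative fit. In conception cycles, which hold no weak array, the day 6 minus day 2 difference was -0.59 ± 0.60 (SE) for ERRFI1, -0.30 ± 0.53 (SE) for ERBB2 and -0.20 ± 0.81 (SE) for ERBB3. All 3 values were negative, and 1 of 4 day 6 arrays exceeded the day 2 median for ERRFI1 and for ERBB3, and 2 of 4 for ERBB2. Within the 2 scan days ERRFI1 was at -1.06 and -0.12, ERBB3 at -0.19 and -0.20, and ERBB2 at -0.84 and 0.25. None passed (adjusted p = 0.997 for each in limma), beside 2 of 12206 features that did (0.0164%), and 4.19% of features had an unadjusted p below 0.05, where the 3 genes gave 0. With the weak arrays left out, 206 features passed (1.69%) and 1861 had an unadjusted p below 0.05 (15.2%), while the 3 genes gave 0 in both counts. In non-mated cycles ERRFI1 was 0.99 ± 0.60 (SE) higher on day 6 with all arrays and 0.50 ± 0.56 (SE) higher without the weak array of day 2. There ERBB2 differed by 0.41 ± 0.53 (SE) and ERBB3 by -0.90 ± 0.81 (SE), and each by -0.02 once the weak array was left out. None passed, and of all features 0 did (3.29% had an unadjusted p below 0.05).

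ERRFI1 thus had opposite signs over time in the 2 cycle types, and the test of that difference is the interaction. The limma interaction test of cycle type and day over the 3 days gave ERRFI1 an unadjusted p = 0.098 and an adjusted p = 0.990, and without the weak arrays 0.272 and 0.967. For ERBB2 and ERBB3 the adjusted p was 0.990 as well, and 0.974 and 0.995 without the weak arrays. No feature passed the interaction test, and 161 had an unadjusted p below 0.05 (1.32%). The test of any change across the 3 days gave an adjusted p = 1.00 for all 3 genes in conception cycles and 0.834 to 0.855 in non-mated cycles (1.00 for all 3 without the weak arrays). An unadjusted p below 0.05 in that test was reached by 2.19% of features in conception and 2.37% in non-mated cycles, and by none of the 3 genes. In conception cycles 1 feature passed after adjustment (0.00819%), and in non-mated cycles 0. Once the weak arrays were left out, 57 features passed in conception cycles (0.467%) and 0 in non-mated cycles, and none of the 3 genes was among them.

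Apart from the groups, ERBB2 and ERBB3 varied together from array to array. Over the 21 arrays that are not weak, Pearson's r was 0.68 (permutation p = 0.0004, adjusted p = 0.0024 over the 6 relations computed) and Spearman's rho was 0.62 (permutation p = 0.00316, adjusted 0.019), two-sided with 100000 resamples. The relation was examined after the values had been seen. The permutation shuffled all 21 arrays freely across groups, slides and scan days, so its p takes the arrays as exchangeable. It does not show that the relation is particular to these genes. With the 2 arrays farthest from the ERBB2 median left out r was 0.48, and with the group means removed 0.67. Within the first scan day r was 0.71 (11 arrays) and within the second 0.56 (10 arrays). It was 0.75 in the 12 conception arrays and 0.59 in the 9 non-mated ones. The 2 levels share the scaling factor of their array, and on 5 of the 21 arrays ERBB3 was not well above background.

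No relation of ERRFI1 to a receptor passed: r was 0.29 with ERBB2 (permutation adjusted p = 0.305) and -0.26 with ERBB3 (permutation adjusted p = 0.319). The value with ERBB2 differed between the scan days, 0.12 in the first and 0.73 in the second, and was 0.50 with the 2 arrays farthest from the ERBB2 median left out. That with ERBB3 was -0.52 in the first scan day and 0.17 in the second. With the mean of the 5 epithelial markers that passed the filter (KRT18, KRT19, CLDN3, CLDN4 and PAX8), r was 0.53 for ERBB2 (permutation adjusted p = 0.0399; Spearman's rho 0.58, adjusted 0.0196), 0.30 for ERBB3 (permutation adjusted p = 0.305) and 0.20 for ERRFI1 (permutation adjusted p = 0.394). The ERBB2 relation to the epithelial markers was 0.73 within the first scan day but 0.07 within the second, so it did not hold within both. It was 0.69 with the group means removed, 0.50 in the 12 conception arrays, 0.80 in the 9 non-mated ones and 0.54 with the 2 farthest arrays left out. For ERBB3 and these markers r was 0.57 with the group means removed, 0.38 in conception and 0.59 in non-mated arrays. Within the first and second scan days it was 0.32 and 0.17. For ERRFI1 r was 0.09 with the group means removed.

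**Figure D5:**
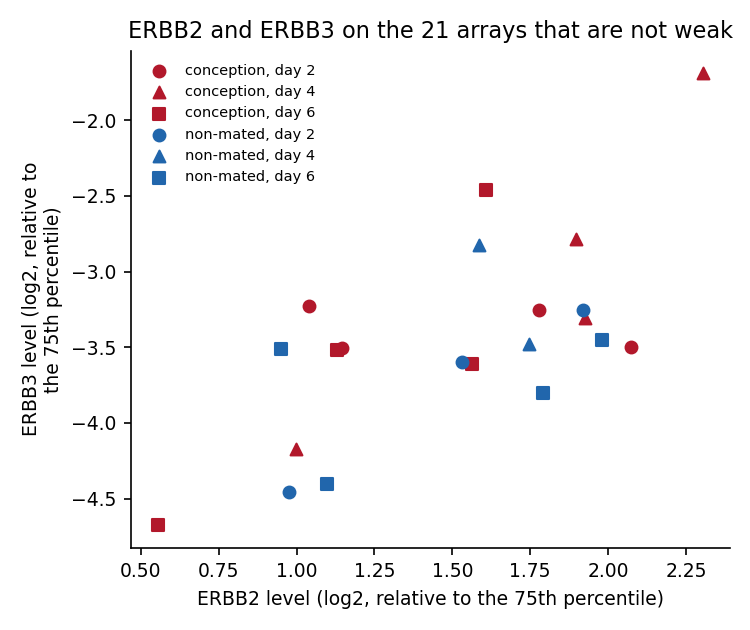
ERBB3 level against ERBB2 level (both log2 relative to the 75th percentile of the array) on the 21 arrays that are not weak; colours give the cycle type and shapes the day. Arrays with a high ERBB2 level tended to have a high ERBB3 level (r = 0.68), in red conception and blue non-mated arrays alike, and the groups overlap.

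The genes whose levels over the same 21 arrays were most like each of the 3 were taken from the 7876 other named features. For ERBB3 they were PHKA1, ETV6, TNK1, INTS9 and TJP3 (Pearson's r 0.77 to 0.81). For ERBB2 they were KIF1A, ST14, RASEF, RAB17 and ABHD5 (0.77 to 0.79), and for ERRFI1 they were NFIL3, AGTR1, LDB3, SLF2 and SCML1 (0.89 to 0.91). No gene was among the 5 of more than 1 of the 3. Each set holds the highest of 7876 correlations and carries no test.

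The wider pathway was read from 6 lists of 72 genes, 59 of which had a probe and 48 of which were tested. In limma 0 of the 48 passed in any of the 9 comparisons, with or without the weak arrays. On day 6 the count at an unadjusted p below 0.05 was 1 of 48 with all arrays, against 2.47% of all features, and 6 of 48 without the weak ones, against 9.35%. The values below are conception minus non-mated on day 6, when the median over all features was 0.00.

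Of the other ligands and receptors, NRG2, a neuregulin, was the only 1 of 6 listed genes tested, at -0.15 ± 1.34 (SE), with 2 conception and 4 non-mated arrays well above background. Among 7 tested genes of shedding and activation, 2 were higher and 5 lower, with a median of -0.20. The extremes were FURIN, a proprotein convertase, at 0.57 ± 0.87 (SE) and ADAM19 at 0.14 ± 0.42 (SE) against ADAM10, a main sheddase of EGF and BTC, at -0.61 ± 0.47 (SE) and ADAM12 at -0.48 ± 0.62 (SE). Among 14 adaptors and kinases 5 were higher and 9 lower (median -0.18), from PTPN11, a phosphatase that relays receptor signals to RAS, at 0.31 ± 0.45 (SE) to HRAS at -0.39 ± 0.67 (SE). NRAS was well above background on 0 of 4 conception and 4 of 4 non-mated arrays. Its conception level was therefore not told apart from background, and no difference is given. The adjusted p was 1.00 for each of these genes in limma.

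The negative regulators held the largest positive values. Of 12 tested, 8 were higher and 4 lower in conception cycles (median 0.18). SOCS3, a cytokine-induced inhibitor, was at -2.87 ± 1.07 (SD, n = 4) in conception and -4.70 ± 0.64 (SD, n = 4) in non-mated cycles, a difference of 1.83 ± 1.08 (SE). SPRED2, an inhibitor of RAS signalling, was at -1.02 ± 1.02 and -2.28 ± 0.18 (SD, n = 4 each), a difference of 1.26 ± 0.82 (SE). In both the 4 conception arrays lay above all 4 non-mated arrays, as 2.57% of all features did in that direction, and SOCS3 was well above background on 3 conception and 2 non-mated arrays. Neither passed in limma (adjusted p = 1.00, and 0.415 and 0.430 without the weak arrays). At the other end SPRY2 was at -0.27 ± 0.52 (SE) and LRIG1, which promotes loss of ERBB receptors, at -0.24 ± 0.56 (SE).

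Early response targets of the pathway gave 3 higher and 7 lower of 10 (median -0.06). PTGS2, the inducible prostaglandin synthase, was at -1.49 ± 0.75 (SE) and MYC at -1.00 ± 0.65 (SE), while IER3 was at 0.92 ± 0.55 (SE) and ETV5 at 0.44 ± 0.86 (SE). In the list of hormone receptors and uterine regulators, only 4 of 8 genes had a probe, and no hormone receptor was among them. No probe was found for PGR, ESR1, HAND2 or FKBP5. Of the 4 uterine regulators tested, 1 was higher and 3 lower (median -0.47). WNT4, a progesterone-responsive factor of the stroma, was at -2.43 ± 1.04 (SE), with conception arrays spread from -3.94 to 0.72 and non-mated arrays from -0.51 to 1.53. IHH, a signal from epithelium to stroma, was at 0.54 ± 1.06 (SE), BMP2 at -0.26 ± 0.54 (SE) and HOXA10 at -0.67 ± 0.49 (SE). All of these groups overlapped, and the adjusted p was 1.00 for each in limma.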

How the data were processed

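Agilent 1-colour rhesus arrays measured total RNA (200 ng, Cy3). Per the file headers, the deposited scanner files hold processed signal intensity from Feature Extraction 9.5.3.1; the submitters' processing notes name version 10.7.3.1. The authors' deposited value table holds log2 values (array medians -0.41 to 2.85), whose differences between arrays followed the scanner values (r 0.997 to 1.00); its centring is unknown, and it served as an alternative. Here the 2 spots of a probe were averaged as log2 of the processed signal and the 75th percentile of the array subtracted. A spot flagged as an outlier was left out unless both spots of the probe were flagged. A probe was kept if at least 1 group had it well above background on 3 or more of its 4 arrays, 1 probe per gene (highest mean). Group means were fitted over 24 arrays with limma 3.58.1 in R 4.3.3 (18 residual degrees of freedom), with Benjamini-Hochberg adjusted p below 0.05 as the threshold; the fit was tested on simulated data. Arrays with under 50% of probes well above background were called weak. Precision is limited by the number of arrays. Replicate numbers were not taken as pairs, and were tried as a block. Gene names came from the files and, by accession or gene ID, from RefSeq and gene ID tables. Members and lists were chosen with earlier results of these data known. Named genes are all members, the 5 nearest features of each measured member, and the 2 highest and 2 lowest of each pathway list on day 6; 1 of these is not reported here. The alternatives comprised normalization, filters, weights, blocks for slide, scan and replicate, and arrays left out.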

Additional observations from a re-analysis of the deposited data

Results flagged for a closer look

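In 7 of 48 sets of 4 arrays (8 genes in 6 groups) 1 array stood apart from the other 3 by Dixon's test, where chance flags about 1 set in 20; 6 of the 7 were on weak arrays. The exception was EGF in conception day 6, replicate 3, at a level of -3.83, 1 of the 2 arrays with EGF well above background. That array had 616 spots flagged as outliers, against 3 to 50 on each other array. On the weak array of non-mated day 2, replicate 3, EGF, TGFA, EGFR and ERRFI1 all stood at -0.26, the lowest value that the scanner software assigned on that array. On the weak array of non-mated day 4, replicate 2, ERBB2 was low at -0.89, not well above background, and ERBB3 was high at 0.59.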

How the results depend on the processing

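ERBB2, ERBB3 and ERRFI1 passed the threshold in 0 of 684 refits (18 differences; lowest adjusted p 0.111, ERRFI1 on day 6 with array weights, at -1.42), and 41 refits turned a sign. The ERRFI1 difference on day 6 stayed between -1.51 and -0.85 in all of its refits. ERBB3 turned on day 2 to 0.26 (normexp background), 0.69 (quantile), 0.40 (without the weak arrays), 0.73 (array weights), 0.22 (slide as a fixed block) and 0.14 (scan range as a block), on day 4 to 0.16 (without the weak arrays) and on day 6 to -0.039 (median scaling). Its mean over days turned to 0.081 (quantile), 0.26 (without the weak arrays), 0.29 (array weights), 0.16 (slide) and 0.070 (scan range), and its non-mated day 6 minus day 2 difference to 0.36 (quantile) and 0.37 (array weights). Without the weak arrays ERBB2 turned to -0.031 (mean over days) and -0.020 (non-mated, day 6 minus day 2), and ERRFI1 on day 2 to -0.035 (array weights -0.0042). The ERRFI1 mean over days turned to 0.37 (quantile), 0.15 (median scaling), 0.37 (slide) and 0.0043 (scan range). Quantile normalization moved the median of all features on day 2 from -0.15 to 0.49. With 1 replicate left out, ERBB3 ranged from -1.00 to 0.40 (day 2), -1.21 to 0.15 (day 4), -0.14 to 0.60 (day 6) and -0.56 to 0.17 (conception, day 6 minus day 2), ERBB2 from -0.020 to 0.71 (non-mated, day 6 minus day 2), and ERRFI1 from -0.035 to 0.63 (day 2) and -0.18 to 0.16 (mean over days). The cause of these turns was not tested.

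Counts over all features were small. The day 6 count of 1 became 0 with normexp, quantile normalization, no filter and slide, scan day or scan range as a block, 3 without the weak arrays and 13 with array weights. The mean over days (1) gave 0 with normexp, quantile and slide, 5 with the stricter filter, 2 without the weak arrays and with scan day, and 4 with array weights. Conception day 6 minus day 2 (2) gave 0 with normexp, quantile, no filter, slide and scan range, 1 with median scaling, 206 without the weak arrays and 224 with array weights. The effect of day in conception cycles (1) gave 0 with normexp, quantile, no filter, slide and scan range, 57 without the weak arrays and 53 with array weights. Array weights gave 1 for day 2 and 1 for the interaction. With 1 replicate left out, these counts ranged from 0 to 4 (day 6), 1 to 4 (mean over days), 0 to 4 (conception, day 6 minus day 2) and 0 to 2 (effect of day, conception), and stayed at 0 for the other 5.

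With the replicate number as a block the day 6 count was 0 and conception day 6 minus day 2 gave 1, and the ERRFI1 difference on day 6 remained at -1.12. Over 60 pairs of groups and numbers the median correlation of deviations was 0.018 for the same number and -0.015 for other numbers, 20 of 60 were over 0.1, and 12 of 24 arrays correlated best with one of their own number. The share to be expected with unrelated numbers was not computed. The replicate number was partly tied to the slide: the conception arrays of replicate 3 were all on slide 7 and those of replicate 4 all on slide 8. It was also tied to the scan day. In all groups but non-mated day 6, replicates 1 and 2 were on the second scan day and replicates 3 and 4 on the first. Within a slide or scan day single differences were computed, with no counts. The ligands and EGFR were dim on these arrays, did not pass the filter and had no difference tested; why their probes were dim was not tested.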
